A study of Mus musculus with 2 samples.

Results

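The lecticans, their tenascin and link protein partners and the receptor Ptprz1 build the hyaluronan-based matrix between cells. The 10 genes described here are the lecticans Acan, Vcan, Ncan and Bcan, the tenascins Tnc and Tnr, the link proteins Hapln1, Hapln2 and Hapln4, and Ptprz1. They were taken by symbol out of 43346 Ensembl genes in the deposited tables, with no use of measured values. RNA came from hindbrain of B6NCrl mouse embryos at embryonic day 12.5, with no treatment or altered allele in the labels. Replicate 1 is a pool of 120 embryos and replicate 2 a pool of 88 embryos, each of both sexes. These 2 libraries form 1 group, so the data hold no contrast of conditions, and every p-value compares 2 pools of embryos. Any difference between them is a spread between replicates of the same tissue.

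Lecticans are proteoglycans that carry chondroitin sulfate chains on a long central region. Their amino-terminal domain binds hyaluronan, a bond that link proteins stabilise, and their lectin-like carboxy-terminal domain binds tenascins. Aggrecan (Acan) and Hapln1 are best known from the proteoglycan aggregates of cartilage, although both also occur in the perineuronal nets of the mature brain. Neurocan (Ncan), brevican (Bcan), tenascin-R (Tnr), Hapln2, Hapln4 and Ptprz1 are known mainly from nervous tissue, while versican (Vcan) and tenascin-C (Tnc) are made in embryonic brain and in mesenchyme. The names brain members (6 genes), cartilage members (2 genes) and members of both tissues (2 genes) follow that textbook division.

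Vcan and Tnc are the members whose splice forms are compared here, and the bases at the deciding splice junctions show how those forms differ. Bcan, Tnr and Hapln2 also have more than 1 annotated transcript. Vcan has 2 large optional exons that encode chondroitin sulfate attachment regions. GAG-alpha is exon 7 of transcript Vcan-203, 2880 nt at chr13:89702918-89705797 on the minus strand of mm10, and GAG-beta is exon 8, 5217 nt at chr13:89688285-89693501. Form V0 has both, V1 has GAG-beta only, V2 has GAG-alpha only and V3 has neither. Each line below gives 25 bases on each side of a junction from the GENCODE M21 transcripts, 5′ to 3′, with the exon after the junction in capitals. The first 4 lines show the Vcan junctions of exons 7 to 8, 6 to 8, 7 to 9 and 6 to 9 in the numbering of Vcan-203. The last 2 lines show Tnc exon 13 joined to exon 14 or, where that exon is skipped, to exon 15, in the numbering of Tnc-203.
V0 (Vcan-203): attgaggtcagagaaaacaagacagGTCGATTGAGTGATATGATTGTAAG
V1 (Vcan-206): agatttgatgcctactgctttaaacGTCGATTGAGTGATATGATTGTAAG
V2 (Vcan-202): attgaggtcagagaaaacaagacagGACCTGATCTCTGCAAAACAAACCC
V3 (Vcan-201): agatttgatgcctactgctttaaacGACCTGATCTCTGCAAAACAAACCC
Tnc with exon 14 (Tnc-203): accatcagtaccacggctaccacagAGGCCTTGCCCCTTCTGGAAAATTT
Tnc without exon 14 (Tnc-204): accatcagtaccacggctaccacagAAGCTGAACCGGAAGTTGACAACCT

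Replicate 1 was sequenced to 31633169 expected counts and replicate 2 to 29766460, of which spike-in RNA took 3.41% and 4.36%. Levels are given in TPM, a scale per transcript length on which different genes can be compared. Neuron markers (median 258.52 and 278.65 TPM in replicates 1 and 2) and radial glia markers (99.9 and 99.83 TPM) were high in both libraries, the tissue named in the labels. Markers of other tissues were also present, with mesenchyme markers at medians of 117.01 and 146.87 TPM and erythroid markers at 871 and 668 TPM. In bulk tissue, fewer cells of a type and less RNA per cell cannot be told apart.

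Ncan and Vcan dominated the family, and together they made up 97.4% and 95.5% of the summed lectican TPM of replicates 1 and 2. Ncan, the neurocan gene (chromosome 8, 70093085 to 70120873), was at 75.04 TPM in the first library and 86.16 TPM in the second. Vcan (chromosome 13, 89655312 to 89742509) was at 69.89 and 76.62 TPM. Ncan was above Vcan within each library, although their ranges over the libraries overlapped, and 2 libraries leave their order uncertain. Ncan lay at percentiles 94.5 and 95.3 of all Ensembl genes, and Vcan at 94.0 and 94.6.

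Aggrecan and brevican were far lower. Acan (chromosome 7, 79053483 to 79115099) reached 2.36 and 6.37 TPM in replicates 1 and 2. Bcan (chromosome 3, 87987531 to 88000230), the lectican that becomes abundant around mature neurons, was at 1.54 and 1.36 TPM from 73 and 38 expected counts. The Acan values lay above those of Bcan in both libraries, although Bcan is the gene known from brain.

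The tenascins were unequal in the same way. Tnc (chromosome 4, 63959785 to 64047015), made by embryonic progenitors and connective tissue, was at 15.72 and 27.23 TPM. Tnr (chromosome 1, 159523769 to 159931729), which crosslinks lecticans in mature nets, was at 1.13 and 1.05 TPM from 51.1 and 38.1 counts. Both libraries showed Tnc more than 10 TPM above Tnr, a gap larger than either gene's spread.

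Hapln1 (chromosome 13, 89539796 to 89611652) was the main link protein gene, at 8.06 and 17.23 TPM in replicates 1 and 2. Hapln4 (chromosome 8, 70083457 to 70090862), the link protein of perineuronal nets in hindbrain nuclei, was at 0.41 and 0.28 TPM. Hapln2 (chromosome 3, 88021750 to 88027583), known from nodes of Ranvier, was at 0.25 and 0.27 TPM from 6 and 5 counts. Hapln2 lay near the limit set by depth, since 3 counts correspond to 0.123 and 0.161 TPM for that gene, while Hapln4, with 27 and 17 counts, lay above its own limits of 0.0455 and 0.0493 TPM. Intervals and limits given here cover counting error only.

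Ptprz1 (chromosome 6, 22875502 to 23052916) encodes a receptor phosphatase of radial glia that carries chondroitin sulfate and has a secreted form, phosphacan. Its level was 17.71 and 16.59 TPM in replicates 1 and 2. By mean TPM the order was Ncan 80.6 ± 7.86, Vcan 73.3 ± 4.76, Tnc 21.5 ± 8.14, Ptprz1 17.1 ± 0.792, Hapln1 12.6 ± 6.48, Acan 4.37 ± 2.84, Bcan 1.45 ± 0.127, Tnr 1.09 ± 0.0566, Hapln4 0.345 ± 0.0919 and Hapln2 0.260 ± 0.0141 (SD, n = 2). The ranges of Tnc, Ptprz1 and Hapln1 overlapped, and their order differed between the libraries. Between Acan and its neighbours Hapln1 and Bcan the ranges did not overlap.

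**Figure D1:**
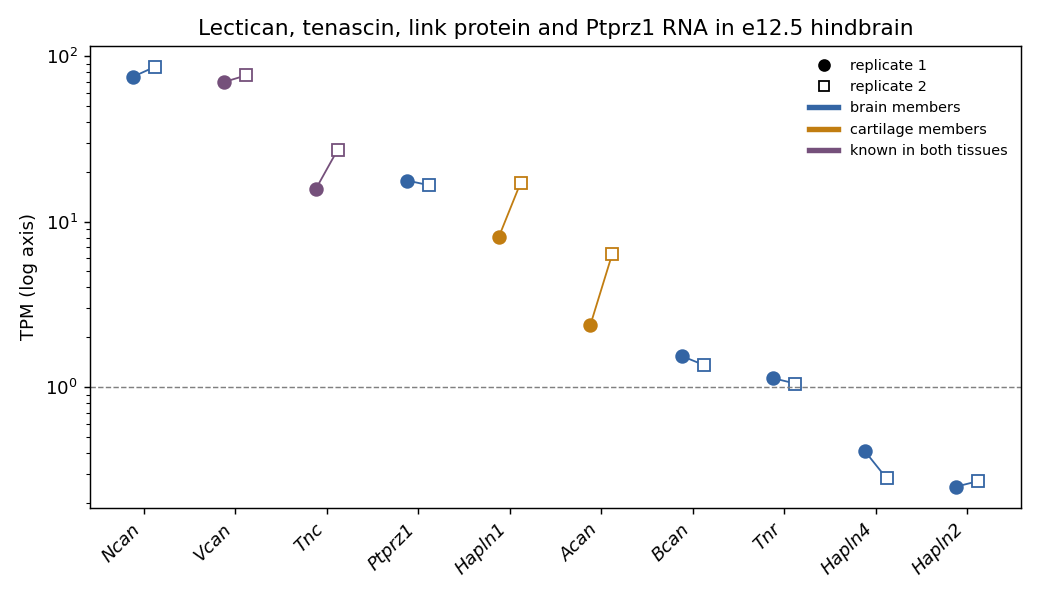
TPM on a log axis (vertical) of each of the 10 genes (horizontal, ordered by mean), with filled circles for replicate 1 and open squares for replicate 2, coloured by the textbook tissue of the gene; the dashed line is 1 TPM. Ncan and Vcan stand highest, and the pairs of Tnc, Hapln1 and Acan are the ones drawn far apart.

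At a detection limit of 1 TPM in both libraries, 8 of the 10 genes were detected, Hapln2 and Hapln4 being below it. For Bcan, Tnr and Hapln2 much of the TPM was assigned to transcripts annotated as retaining an intron. Such a transcript, Tnr-205, 660 nt long, took 69.0% and 69.9% of the Tnr TPM in replicates 1 and 2, from 8.33 and 7.23 counts. Restricted to protein-coding transcripts, Tnr was at 0.35 and 0.31 TPM, Bcan at 1.04 and 0.37 TPM, and Hapln2 at 0.04 TPM in replicate 1 and listed at 0 in replicate 2. On that measure, added after the values were seen, 6 of the 10 genes were detected: Ncan, Vcan, Tnc, Ptprz1, Hapln1 and Acan.

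Between the libraries Acan, Hapln1 and Tnc were higher in replicate 2, by margins that passed both tests. Expected counts were compared gene by gene with a two-sided exact binomial test, which allows for counting error only, and with the edgeR exact test, which adds a dispersion common to all genes and estimated from the same libraries. All 10 genes passed the filter of 10 summed counts. The binomial test called 7 of them, 5 higher and 2 lower in replicate 2, where it called 20.0% of all 19209 genes tested in either direction and 10.5% as higher. The edgeR test called 3, all higher, where it called 1.57% of all genes and 0.942% as higher.

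Acan had 325 counts in replicate 1 and 808 in replicate 2, a ratio of 2.67 (95% interval 2.34 to 3.04) after scaling. Its Benjamini-Hochberg adjusted p was 3.73e-53 in the exact binomial test and 5.52e-09 in the edgeR exact test. Hapln1 had 758 and 1494 counts, a ratio of 2.11 (1.94 to 2.31) with an adjusted p of 9.97e-06 in the edgeR exact test. Tnc had 2068.95 and 3258.87 counts, a ratio of 1.69 (1.60 to 1.79) with an adjusted p of 0.00694 in the edgeR exact test. In each of these genes the pool of 88 embryos had the higher value.

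Ncan and Vcan had ratios of 1.14 (1.11 to 1.17) and 1.09 (1.06 to 1.13), past the binomial test but with adjusted p of 1 in the edgeR exact test. Scaled to spike-in totals, under which the median log2 ratio of all genes tested was -0.37 and 67.1% of them were called (1.64% higher, 65.5% lower), the log2 ratios of Ncan and Vcan turned to -0.19 and -0.24, so the direction of both depends on the scaling. Acan, Hapln1 and Tnc stayed higher under every scaling tried, at log2 ratios of 1.04, 0.71 and 0.39 with spike-in totals. Ptprz1 (ratio 0.926, 0.876 to 0.980) and Bcan (ratio 0.558, 0.367 to 0.837) were lower in the binomial test, with adjusted p of 0.0396 and 0.0241, and were not called by the edgeR exact test. The TPM of Bcan differed less than its counts, by -0.11 on the scale of log2(TPM+1), which shrinks ratios near 1 TPM, and by -0.17 with a pseudocount of 0.1. The coding transcript Bcan-201 went from 60.1 to 19.94 counts and from 1.04 to 0.37 TPM, a ratio of 0.358 (0.204 to 0.602). Bcan-202, 550 nt long with a retained intron, went from 0 to 0.35 TPM on 2.79 counts. The size of the Bcan difference thus depends on the measure. Ptprz1 also missed the binomial threshold when genes of low count were kept, at an adjusted p of 0.0510. Tnr, Hapln2 and Hapln4 passed neither test with the main scaling, and the interval for Tnr, 0.511 to 1.24, leaves room for a change in either direction. With spike-in totals Tnr was called lower, at a binomial adjusted p of 0.0474 in the exact test, as were 65.5% of all genes.

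On the scale of log2(TPM+1), the 6 brain members averaged 2.29 in replicate 1 and 2.26 in replicate 2. The 2 cartilage members averaged 2.46 and 3.53, and Vcan with Tnc 5.11 and 5.55. The mean difference of brain minus cartilage members was therefore -0.18 in replicate 1 and -1.28 in replicate 2, or -0.73 ± 0.78 (SD, n = 2), which is within its own spread. It turned positive, at 0.038, when Vcan and Tnc were counted as brain members. Summed TPM, with both left out, gave the opposite order. It was 96.08 and 105.71 for the brain members in replicates 1 and 2, and 10.42 and 23.6 for the cartilage members. Which class is higher therefore rests on the measure and on where Vcan and Tnc are placed. The mean log2 ratio of replicate 2 over replicate 1 was 1.10 higher in the cartilage members than in the brain members.

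Genes of cartilage and skeletal muscle differed between the pools in the same direction as Acan and Hapln1. Of 17 cartilage markers the binomial test called 12 higher and 1 lower in replicate 2, and the edgeR exact test called 5 higher and none lower. Over all genes tested, these tests called 20.0% and 1.57% in either direction. The median log2 ratio was 0.46 in that list and 2.21 over the muscle markers, beside -0.0019 over all genes tested. The 5 included the cartilage matrix genes Matn1 (3.74 and 15.57 TPM in replicates 1 and 2) and Matn3 (1.30 and 4.77 TPM). They also included Col10a1, a marker of mature chondrocytes, lowest of the list at 0.03 and 0.34 TPM. Col10a1 rested on only 2 and 18 counts, with an adjusted p of 0.0422 in the edgeR exact test. Matn1 and Matn3 lie outside the naming rule and were chosen after their values were seen. The highest 3, the collagen genes Col2a1 (376 and 397 TPM) and Col9a3 (141 and 159 TPM) and the transcription factor gene Sox9 (160 and 159 TPM), were not called by edgeR, and all 3 are also expressed in embryonic neural or inner ear tissue. The summed TPM of the list was 1002 in replicate 1 and 1118 in replicate 2, and no marker was at 0 in both. All 8 skeletal muscle markers were called higher by both tests, with a sum of 65.2 and 276 TPM, led by Actc1 (27.4 and 111.9 TPM). With spike-in scaling, 6 cartilage markers were called higher and 7 lower, and all 8 muscle markers higher, where 1.64% of all genes were called higher and 65.5% lower. The part of cartilage or muscle tissue in the Acan, Hapln1 and Tnc difference was not tested.

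Markers of other cell types also differed between the libraries, where the binomial test called 20.0% of all genes and edgeR 1.57%. Mesenchyme markers, which accompany Vcan and Tnc in connective tissue, had 5 of 7 called higher by the binomial test and none by edgeR, with sums of 1401 and 1803 TPM. Radial glia markers, the cells of Ptprz1, had 5 of 8 called lower by the binomial test and none by edgeR, with sums of 2752 and 2513 TPM led by Fabp7 (1304 and 1151 TPM). Of 8 genes listed as oligodendrocyte lineage markers the binomial test called 2 higher, Pdgfra (37.5 and 44.95 TPM) and Mbp (12.5 and 15.17 TPM). It called 2 lower, and the median log2 ratio of the list was 0.06. Whether all 8 report that lineage in this tissue was not tested. The edgeR exact test called the lower 2, Sox10 (15.37 and 9.60 TPM) and Olig1 (4.27 and 2.22 TPM). Sox10 and Olig1 fall outside the naming rule and are given because they were called. The list of otic epithelium markers, Oc90, Epcam, Krt8 and Krt18, had 4 of 4 called lower by the binomial test. The edgeR exact test called 2 of them, Oc90 and Epcam. The list summed to 330 and 155 TPM, of which Oc90 held 247 and 107 TPM. How much of the other 3 came from the ear was not tested. Neuron markers had 5 of 8 called higher and 2 lower by the binomial test, erythroid markers 3 of 4 lower, endothelial markers 1 of 5 higher, and astrocyte markers 1 higher and 1 lower of 4 tested, with none called by edgeR in these 4 lists. With spike-in totals the directions shifted with those of all genes, of which 1.64% were called higher and 65.5% lower. The mesenchyme markers then had 2 called higher and 3 lower. All 8 neuron markers, all 8 radial glia markers and 6 of 8 oligodendrocyte lineage markers were called lower. How far any of these cell types carries the members' differences was not tested.

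**Figure D2:**
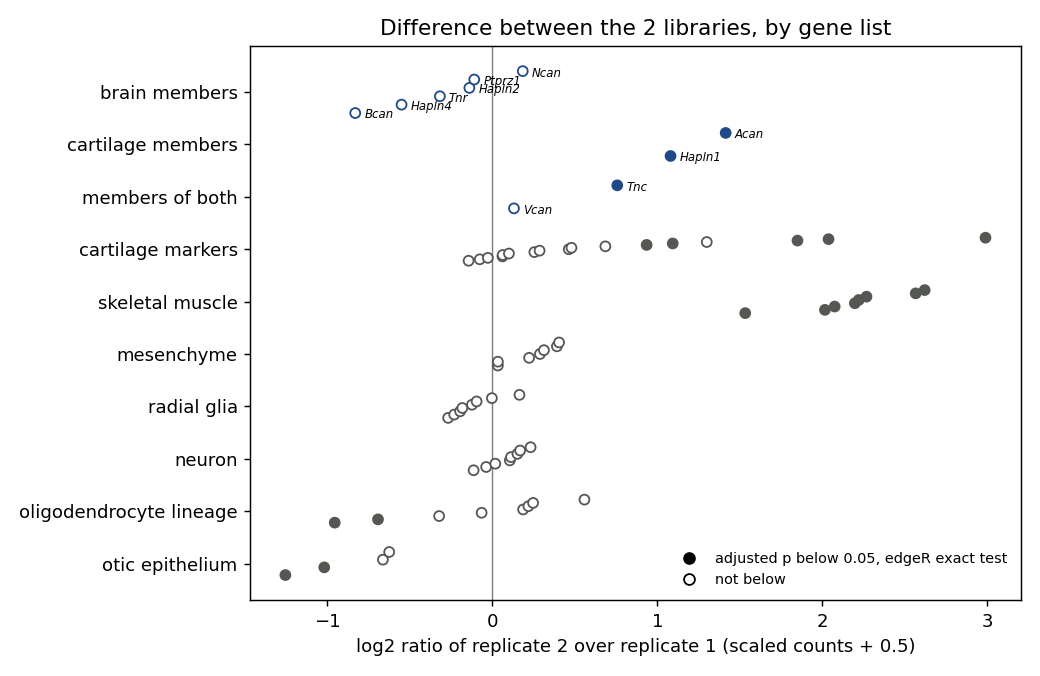
Log2 ratio of scaled counts (0.5 added) of replicate 2 over replicate 1 (horizontal) for the members and for marker lists (rows); each circle is 1 gene with 10 or more summed counts, filled where the edgeR exact test gave an adjusted p below 0.05. Acan, Hapln1 and Tnc lie to the right of 0, as do the filled cartilage and muscle markers, and the brain members lie within 0.83 of 0.

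The form with both chondroitin sulfate regions took the largest share of Vcan TPM. V0 (Vcan-203) took 46.92% of the Vcan TPM in replicate 1 and 45.70% in replicate 2, V3 (Vcan-201) 22.08% and 21.04%, and V1 (Vcan-206) 7.79% and 7.61%. V2 (Vcan-202), the form known from mature brain, took 2.86% and 7.67%. The remaining transcripts, which are shorter and include Vcan-207 with a retained intron, together took 20.35% and 17.96%. As a share of expected counts rather than of TPM, V0 held 78.7% and 75.9%, since its transcript is the longest at 12427 nt against 2321 nt for V3. The noncoding ends annotated for the forms also differ, at 2365 nt for V0, 1150 nt for V1, 857 nt for V2 and 356 nt for V3, and how this affects the shares was not tested.

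Of the 4 forms, V2 had the largest ratio between the libraries. The deposited posterior mean counts, with the SD of their assignment to transcripts, were 254.78 ± 73.3 in replicate 1 and 606.59 ± 102 in replicate 2 for Vcan-202. After scaling the difference was 396 counts, or 3.00 times its combined SD of 132. For V0 it was 438 counts (SD 190), a ratio of expected counts of 1.06 (1.02 to 1.09). For V3 it was 16.4 counts (SD 94.4) and for V1 52.4 (SD 141), both within 1 SD. The exact binomial test on expected counts gave a ratio of 2.91 (2.49 to 3.43) and an adjusted p of 2.89e-43 for Vcan-202, but it leaves out the doubt in assignment and called 30.9% of all transcripts tested. TPM held by transcripts with GAG-alpha was 34.8 and 40.9 in replicates 1 and 2, and TPM held by those with GAG-beta was 38.2 and 40.9.

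Tnc RNA lacked the optional exon 14 in most of the assigned transcripts. That exon is 273 nt long, at chr4:63984460-63984732 on the minus strand, in the region of fibronectin type III repeats where tenascin-C is known to be spliced. Tnc-204, without it, took 65.30% of the Tnc TPM in replicate 1 and 67.66% in replicate 2, and Tnc-203, with it, took 25.52% and 18.43%. Tnc-201, which also lacks the exon, took 8.12% and 10.77%, so that full-length transcripts without it held 73.4% and 78.4%. Tnc-201 and Tnc-204 share the same coding length of 6057 nt, and their annotated starts lie 26290 nt apart.

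The excess of Tnc in replicate 2 was assigned mainly to Tnc-204, which held the largest share in both libraries. Its ratio of expected counts, 1.77, was near the 1.69 of the whole gene. The ratio was 1.24 for Tnc-203, 2.27 for Tnc-201 and 5.01 for Tnc-202, the last on 8.99 and 42.35 counts. The posterior mean count of Tnc-204 went from 1297 ± 127 to 2177 ± 167, a scaled difference of 1038 counts or 4.73 combined SDs. The difference was 94.5 counts (SD 139) for Tnc-203 and 256 counts (SD 246) for Tnc-201. Every annotated full-length transcript holds 5 or 6 exons of 273 nt, so forms that skip more of them could not be measured here.

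**Figure D3:**
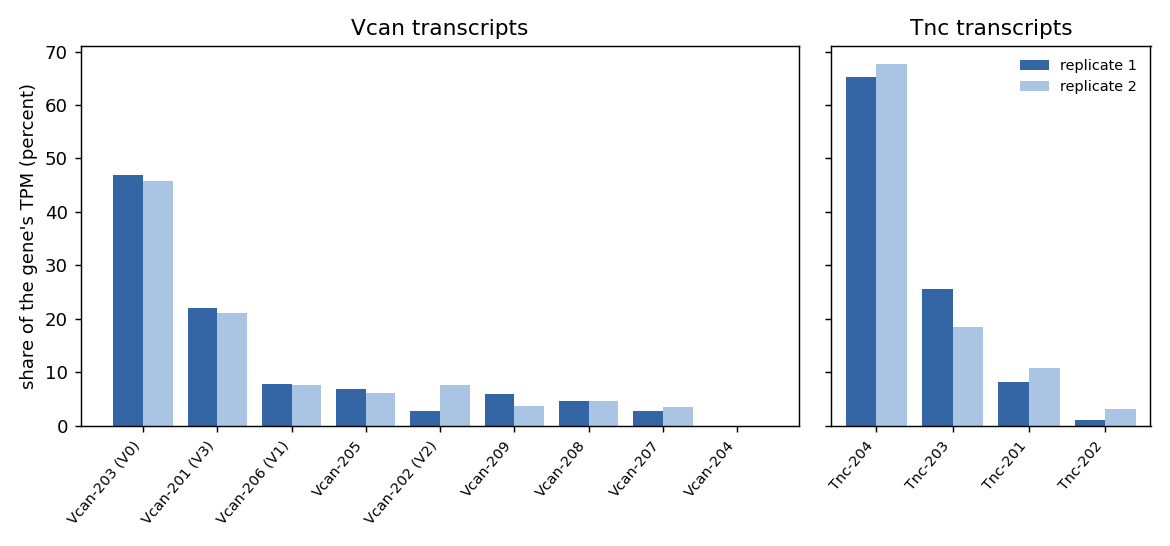
Share of the gene's TPM in percent (vertical, from 0) of each annotated transcript of Vcan and Tnc (horizontal), with dark bars for replicate 1 and light bars for replicate 2. Vcan-203 (V0) and Tnc-204 lead in both libraries, and Vcan-202 (V2) is the tall light bar at 7.67% beside a dark bar at 2.86%.

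Each lectican gene lies beside a link protein gene with no annotated gene between them. Vcan and Hapln1 end towards each other 43659 nt apart on chromosome 13, and Vcan had 8.67 times the TPM of Hapln1 in replicate 1 and 4.45 times in replicate 2. Ncan and Hapln4 end towards each other 2222 nt apart on chromosome 8, with ratios of 183 and 308 that rest on 27 and 17 Hapln4 counts. Bcan and Hapln2 lie 21519 nt apart on the same strand of chromosome 3, with ratios of 6.16 and 5.04. Acan and Hapln3, a link protein gene outside the set (0.71 and 1.54 TPM), end 2 nt apart on opposite strands, with ratios of 3.32 and 4.14. Hapln3 had 18 and 36 counts, and without strand information its fragments and those running past the end of Acan cannot be told apart. Antisense genes overlap Vcan (Gm4117, 59 and 54 counts) and Tnr (Gm38039, 11.9 and 5.9 counts), and their fragments carry the same doubt.

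**Figure D4:**
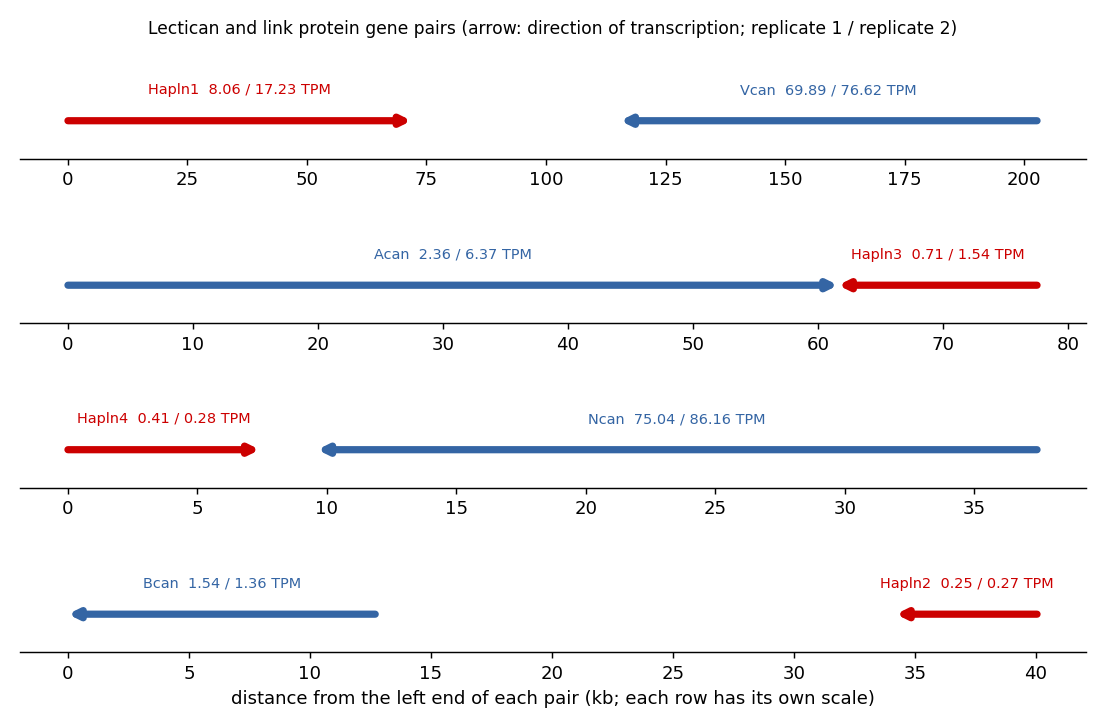
Positions of the lectican (blue) and link protein (red) genes of each pair along the chromosome in kb from the left end of the pair, each row on its own scale; arrows give the direction of transcription, and labels give TPM in replicate 1 and replicate 2. The lectican has the higher TPM in all 4 pairs, and in 3 of them the genes end towards each other.

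Most receptors and ligands of the family were detected, 18 of 19 genes. The binomial test called 7 higher and 2 lower in replicate 2, where it called 20.0% of all genes, and edgeR called none. With spike-in totals the same list had 1 called higher and 16 lower, where 1.64% of all genes were called higher and 65.5% lower. The direction of the list thus depends on the scaling. The highest were Mdk, a growth factor that binds Ptprz1, at 784 and 730 TPM in replicates 1 and 2, Ptprs, a receptor phosphatase for chondroitin sulfate, at 188 and 191 TPM, and the cell adhesion gene Ncam1, which binds neurocan, at 168.2 and 203.9 TPM. Other Ptprz1 partners, named for that role after their values were seen, were Ptn at 173 and 177 TPM and Cntn1 at 7.78 and 7.91 TPM. The lowest was Itgb6, an integrin subunit, at 0.76 and 0.60 TPM, although its counts of 19 and 47 gave a ratio of 2.65 that the binomial test called higher.

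The enzymes that build chondroitin sulfate were nearly all present. Of 21 genes, 20 were tested and detected, with 3 called higher and 1 lower by the binomial test and none by edgeR, and a median log2 ratio of 0.06. The share called equals the 20.0% of all genes. With spike-in totals none was called higher and 13 lower, where 65.5% of all genes were called lower. B3gat3 and B4galt7, which make the linker to the core protein, were at 62.1 and 59.3 TPM and at 35.4 and 34.3 TPM, and Chpf, which takes part in chain extension, at 33.9 and 31.7 TPM. Chst13, a sulfotransferase gene, had 4 counts in replicate 1 and 0 in replicate 2. The family's binding partner hyaluronan is made by 3 synthases, and all were low, with Has2 at 1.69 and 1.74 TPM, Has1 at 0.58 and 0.55 TPM and Has3, lowest of the 11 hyaluronan genes by mean TPM, at 0.18 and 0.21 TPM. Has1 and Has2 were named after their values were seen. The highest of that list were Hyal2, a hyaluronidase, at 85.3 and 87.7 TPM, Ugdh, which makes a sugar precursor, at 79.7 and 84.4 TPM, and the hyaluronan receptor gene Hmmr at 29.9 and 27.6 TPM. The binomial test called 1 of the 11 higher and none lower, where it called 20.0% of all genes, and edgeR called none. With spike-in totals none of the 11 was called higher and 4 lower, where 65.5% of all genes were called lower.

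Proteases that cut lecticans and an inhibitor were all detected, 11 of 11. The binomial test called 3 higher, where it called 10.5% of all genes higher, and edgeR called none. With spike-in totals 1 was called higher and 7 lower, where 65.5% of all genes were called lower. The metalloprotease genes Mmp14 (87.4 and 91.2 TPM) and Mmp2 (73.6 and 72.3 TPM) and the inhibitor Timp3 (34.5 and 37.3 TPM) led, and Adamts8 was lowest at 1.22 and 1.28 TPM. Among 8 other extracellular or cell-surface proteoglycans the binomial test called 7 higher, where it called 10.5% of all genes higher, and edgeR none. With spike-in scaling the binomial test called 1 higher and 4 lower, where 1.64% of all genes were called higher and 65.5% lower. The direction of this list thus depends on the scaling. Dcn (34.9 and 41.9 TPM) and Bgn (36.3 and 40.1 TPM), small proteoglycans of connective tissue, and Spock2 (28.9 and 31.2 TPM) led, and Cspg4 was lowest at 4.01 and 4.99 TPM. Of 4 further relatives, only Tnfaip6, a hyaluronan-binding protein gene, exceeded 1 TPM in both libraries, at 21.2 and 27.9 TPM, while the tenascin genes Tnn (0.18 and 0.19 TPM) and Tnxb (0.04 and 0.03 TPM) stayed below it.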

How the data were processed

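Total RNA longer than 200 nt was measured in 2 libraries of e12.5 hindbrain started from 10 ng each, with ERCC spike-ins, per the labels' protocols. The authors deposited gene and transcript tables on mm10 with GENCODE M4, per the accompanying notes; aligner, quantifier and strandedness were not given in the sources used here. Per the file headers, the deposited values are expected counts (estimated counts of fragments that need not be whole), TPM, FPKM and the percent of a gene's expression in each transcript, with posterior mean counts and their SD. Entries that name no gene held 0.000107% and 0.000114% of counts and were left out.

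Expected counts were rounded. Genes with at least 10 summed counts were scaled by TMM (edgeR 4.0.16, factors 0.99969 and 1.00031) and tested with scipy 1.17.1 (exact binomial, two-sided), with Benjamini-Hochberg adjustment over all genes; calls needed an adjusted p below 0.05. The exact test of edgeR used a common dispersion (coefficient of variation 9.02%). The scripts were tested on simulated data. The ratio of chi-square to degrees of freedom between the libraries was 8.82, well beyond sampling noise, so both were kept as separate replicates. A pseudocount of 1 TPM was used for logs. Names and coordinates are from GENCODE M21. Of 159 listed genes 1 was not matched. DESeq2 1.42.0 size factors, library totals, spike-in totals and no filter were alternatives.

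The members and gene lists were chosen with earlier results of these data known. The naming rule took all members, the 3 highest and the lowest of each list, and companion genes called by edgeR, of which there were none; marker lists are named in part.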

Additional observations from a re-analysis of the deposited data

How the results depend on the processing

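The number of family members called between the libraries was 7 in the exact binomial test and 3 in the edgeR exact test, which called 301 genes in all against 3846. With DESeq2 size factors or library totals it stayed at 7, without the low-count filter it was 6 and with spike-in totals 8, of which 3 were higher and 5 lower, where spike-in totals called 67.1% of all genes. The brain minus cartilage difference of mean log2(TPM+1), -0.73, moved to -1.82 with medians over members and to -1.89 with Vcan and Tnc among the cartilage members, and reversed to 0.038 with both among the brain members, because the classes then hold other genes. Leaving out each library gave -1.28 to -0.18. The share of Vcan in V0, 46.3%, was 45.4% by the posterior mean and 77.3% by expected counts, the latter weighting transcripts by length. The share of Tnc in Tnc-204, 66.5%, was 63.3% by the posterior mean; the cause was not tested. The cartilage excess in the log2 ratio ranged from 0.79 to 1.32 and kept its sign in every alternative run. No called member's log2 ratio of TPM changed sign with FPKM, a pseudocount of 0.1 or TPM without spike-ins. Calls between libraries could not be recomputed without a library, since 1 would remain. No paired analysis was possible because the series has 1 group. Depth limits Hapln2 and Hapln4, with at most 27 counts a library, and 2 libraries limit every SD.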
